A study of Mus musculus with 6 samples.

Results

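Immediate early genes are switched on within minutes of a stimulus, before any new protein is made, by kinases that act on factors already bound at their promoters. Many of them encode transcription factors. FOS and JUN proteins pair to form AP-1, EGR proteins bind GC-rich sites, and the messages decay fast, so their level follows recent signalling through receptors and also the handling of cells. In B lymphocytes, AP-1, EGR and NR4A factors follow signals from the antigen receptor. The 10 genes Fos, Fosb, Jun, Junb, Egr1, Egr2, Ier2, Ier3, Atf3 and Nr4a1 are described here in mouse bone marrow cells without cryptochromes. Their members were all probe sets listed with 1 of these symbols and no other, 12 of the 45037 non-control probe sets on the array. Jun and Egr2 had 2 probe sets each and the other genes had 1.

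There were 3 arrays of marrow cells from mice lacking both Cry1 and Cry2, labelled DKO 1 to DKO 3, and 3 of marrow cells from wild type mice, labelled WT 1 to WT 3. All samples were of strain C57BL/6 per the labels, and all cells had been grown in serum with interleukin-7, a cytokine that sustains early B lymphocytes. The sources used here give neither the time of harvest nor the design of the deleted alleles, and they do not say if arrays came from separate animals or cultures. The p-values therefore reflect the variation among these arrays, and that variation may be technical.

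The signal is a MAS5 intensity on a linear scale. WT 2 stood apart from the other arrays. Its 3' to 5' signal ratio for the Actb control was 824, against 1.47 to 2.05 on the other 5, and its median signal was 115, against 44.0 to 55.3. WT 2 is therefore shown apart below. DKO 3 had ordinary control ratios and an ordinary median signal, and it is shown apart only because its values, among them those of the immediate early genes and of granulocyte markers, differed from those of DKO 1 and DKO 2. Of 16 marker genes of early B cells with a named probe set, 0 lay below the array median on any array, so the labelled cultures held B lineage RNA in both genotypes.

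Promoter letters were taken from RefSeq, build GRCm38.p6, where 8 of the 10 genes matched and Egr1 and Ier2 did not. Stretches of Fos, Fosb and Nr4a1 are shown because their values moved together among the knockout arrays, and one of Egr2 because its 3 knockout values lay above the wild type ones after centring. Capitals mark TGACG, the core of the cAMP response element on which CREB and ATF factors bind, or its reverse complement, and in Egr2 they mark a CArG box, the site of serum response factor. Each of the first 3 stretches is the 120 bases before the annotated start, and that of Egr2 is 30 bases around its site. They lie at chr12:85473770-85473889 (plus strand) for Fos, chr7:19310046-19310165 (minus strand) for Fosb, chr15:101266726-101266845 (plus strand) for Nr4a1 and chr10:67537787-67537816 (plus strand) for Egr2.
Fos: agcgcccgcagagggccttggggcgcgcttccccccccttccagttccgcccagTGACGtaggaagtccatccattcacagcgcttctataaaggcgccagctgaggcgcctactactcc
Fosb: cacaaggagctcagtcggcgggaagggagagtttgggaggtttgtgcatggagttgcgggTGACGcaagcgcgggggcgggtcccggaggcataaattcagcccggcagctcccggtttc
Nr4a1: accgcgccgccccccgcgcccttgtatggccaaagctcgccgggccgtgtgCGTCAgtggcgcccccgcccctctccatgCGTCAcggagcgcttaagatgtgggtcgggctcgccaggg
Egr2: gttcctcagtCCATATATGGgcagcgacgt

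In windows of 250 bases before to 50 after the start, read on both strands, TGACG was found in 6 of the 8 matched genes (Fos, Fosb, Junb, Egr2, Atf3 and Nr4a1) and in 23% of 27025 genes. This core was chosen after the letters were seen, and it is part of the full element TGACGTCA, which was found in 0 of 8 and in 2.03% of genes. The Nr4a1 window held 4 cores and the Fos window 2. The CArG box and the E-box CACGTG, on which CLOCK and BMAL1 act and cryptochromes repress, were each found in 1 of 8, against 1.81% and 8.09% of genes. Both were in Egr2, which had windows at several annotated starts and so more places for a match. Its E-box lay in the window of another start, chr10:67535249-67535548, and not in the windows with a CArG box. The EGR site GCGGGGGCG was found in Fosb and Nr4a1, against 3.31% of genes, and AP-1 (TGACTCA) and D-box (TTACGTAA) sites in 0 of 8, against 5.95% and 0.126%. A match is a description of these letters and not evidence of binding. Sites more than 250 bases before a start, and those of Egr1 and Ier2, were not read. A gene without a match here may therefore hold the site farther upstream.

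None of the 12 probe sets passed the test of a difference between the genotypes. Values were taken as log2(intensity + 16), which understates the change of dim genes, each array was centred on its median, and limma was fitted over 27022 probe sets with Benjamini-Hochberg adjustment at 0.05. All 12 were among those tested. With limma 0 of 12 passed, against 0.0074% of all tested probe sets, and 0 of 12 had an unadjusted p under 0.05, against 3.12%. Taking for each gene its brightest probe set, 9 of the 10 genes had a higher mean in DKO, and the median difference was 0.85 on the log2 scale. Of all 12612 tested genes 69.9% were higher in DKO, with a median of 0.305, so most tested genes leaned that way.

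The lean was smaller with WT 2 left out. Without WT 2, 7 of the 10 genes had a higher mean in DKO and the median was 0.23, against 51.8% and 0.01 for all tested genes. Again 0 of the 12 probe sets passed limma, against 0.0222%, and 0 of 12 had an unadjusted p under 0.05, against 4.39%.

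**Figure D1:**
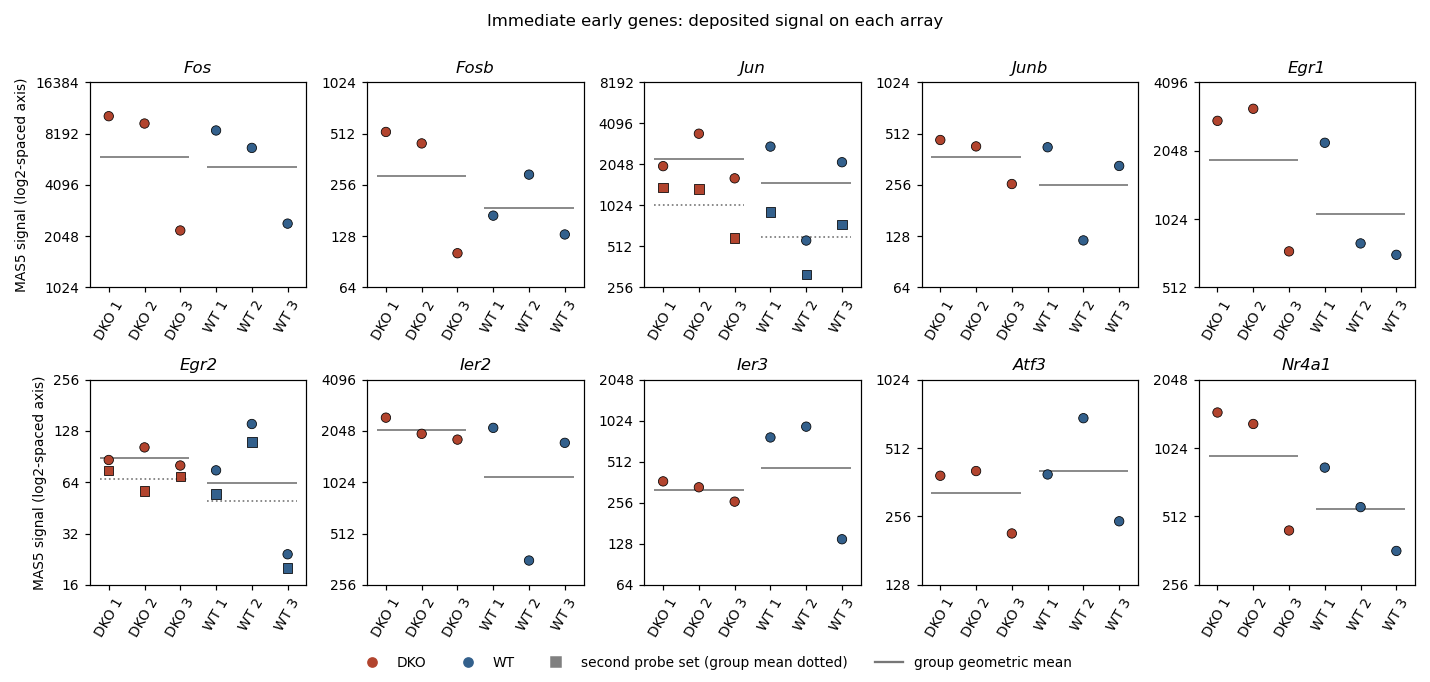
Deposited MAS5 signal (vertical axis, log2-spaced) of the 10 immediate early genes on each of the 6 arrays (horizontal axis), DKO in red and WT in blue, with squares for a second probe set and lines at each group's geometric mean. Fos, Fosb, Egr1 and Nr4a1 read high on DKO 1 and DKO 2 and low on DKO 3, and Jun, Junb and Ier2 read lowest on WT 2.

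Fos, the leucine zipper partner of JUN in AP-1, read 10350, 9375 and 2210 on DKO 1 to 3, against 8535, 6744 and 2425 on WT 1 to 3. The groups overlapped throughout: DKO 3 was the lowest array of all and WT 3 the next, while WT 1 stood close to DKO 1 and DKO 2. The log2 mean was 12.71 ± 1.11 in DKO and 12.19 ± 0.85 in WT (SD, n = 3 each), a difference of 0.52 (SE 0.67, limma adjusted p = 0.827). The 95% interval ran from -1.06 to 2.09. With 1 array left out the difference lay between 0.17 (without DKO 1) and 1.16 (without DKO 3), and it was 0.18 without WT 3, so its size rested on single arrays.

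Fosb, a close relative of Fos that also pairs with JUN proteins, read 523, 448 and 102 on DKO 1 to 3, against 169, 294 and 131 on WT 1 to 3. DKO 1 and DKO 2 stood above every WT array and DKO 3 below every one. Once centred, the log2 mean was 8.43 ± 1.07 in DKO and 7.51 ± 0.09 in WT (SD, n = 3 each), so the WT arrays were close together. The difference was 0.91 (SE 0.55, limma adjusted p = 0.822).

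Jun, the AP-1 subunit that can pair with itself, read 1985, 3433 and 1616 on DKO 1 to 3, against 2762, 565 and 2121 on WT 1 to 3 by its brighter probe set. WT 1 and WT 3 lay within the range of the DKO arrays and WT 2 far below it. The difference in log2 signal was 0.88 (SE 0.87, limma adjusted p = 0.822), and -0.14 without WT 2. The other Jun probe set read 1378, 1349 and 592 on DKO 1 to 3, against 914, 319 and 744 on WT 1 to 3, with a difference of 1.08 (limma adjusted p = 0.822), and 0.30 without WT 2. The 2 probe sets thus had opposite signs once WT 2 was left out.

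Junb, a JUN protein that tends to restrain proliferation where JUN drives it, behaved like the brighter Jun probe set. It read 469, 430 and 259 on DKO 1 to 3, against 425, 121 and 330 on WT 1 to 3. Only WT 2 lay outside the DKO range. The difference was 0.82 (SE 0.71, limma adjusted p = 0.822), and -0.02 without WT 2, with a 95% interval there of -0.67 to 0.63.

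Egr1, a zinc finger factor induced by ERK signalling, read 2769, 3129 and 738 on DKO 1 to 3, against 2217, 800 and 712 on WT 1 to 3. DKO 1 and DKO 2 were the highest arrays, WT 1 came next, and DKO 3 lay with WT 2 and WT 3. The log2 mean was 11.03 ± 1.01 in DKO and 9.95 ± 1.19 in WT (SD, n = 3 each), a difference of 1.08 (SE 0.77, limma adjusted p = 0.822). Without WT 2 it was 0.54.

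Egr2, the related factor known for its part in myelination and in lymphocyte tolerance, was dim, below the array median on WT 3. Its brighter probe set read 86.5, 102 and 80.2 on DKO 1 to 3, against 75.2, 141 and 24.2 on WT 1 to 3. As deposited, WT 2 was the highest array. After centring, all 3 DKO arrays (6.74, 6.98 and 6.90) stood above all WT arrays (6.60, 6.47 and 5.59) on the log2 scale. Of the 10 genes Egr2 was the single one whose groups did not overlap with DKO higher, and the same held for its second probe set, so 2 of 12 probe sets against 6.97% of those tested. None of the 12 had DKO wholly below WT, against 3.29%. The difference was 0.65 (SE 0.34, limma adjusted p = 0.822) for the brighter probe set and 0.58 (limma adjusted p = 0.822) for the other, and 0.78 and 0.69 without WT 2. The separation was absent with no centring and with centring over the tested probe sets.

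Nr4a1, an orphan nuclear receptor used as a reporter of antigen receptor signalling, read 1468, 1307 and 444 on DKO 1 to 3, against 840, 563 and 361 on WT 1 to 3. The arrays fell much as for Egr1, with DKO 1 and DKO 2 above every WT array and DKO 3 inside their range. The SD of the log2 values was 0.80 in DKO and 0.75 in WT (n = 3 each), and the difference was 1.07 (SE 0.59, limma adjusted p = 0.822), and 0.75 without WT 2.

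Ier2, a nuclear regulator induced by serum, read 2451, 1970 and 1822 on DKO 1 to 3, against 2135, 356 and 1744 on WT 1 to 3. It had the largest difference of the 10 with all arrays, 1.21 (SE 0.92, limma adjusted p = 0.822), and that size rested on WT 2, since without it the difference was 0.08 with a 95% interval of -0.40 to 0.55. Among DKO arrays Ier2 varied little, with an SD of 0.14 on the log2 scale.

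Ier3, a stress-induced regulator of survival and a target of NF-kB, was the single gene of the 10 with a lower mean in DKO as reported. That direction turned to 0.24 without WT 1, and Atf3 was also lower in DKO with quantile normalization (-0.46), no centring (-0.31) and centring over the tested probe sets (-0.29). Ier3 read 367, 333 and 261 on DKO 1 to 3, against 772, 926 and 138 on WT 1 to 3. The DKO arrays lay between WT 3 and the other WT arrays. The difference was -0.23 (SE 0.58, limma adjusted p = 0.906), with an SD of 0.11 in DKO and 1.12 in WT.

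Atf3, a factor of the ATF and CREB family induced by stress, showed no separation. It read 387, 406 and 215 on DKO 1 to 3, against 392, 693 and 244 on WT 1 to 3. The difference was 0.00 (SE 0.37, limma adjusted p = 1), so a change of more than 0.88 on the log2 scale either way lay outside the 95% interval.

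**Figure D2:**
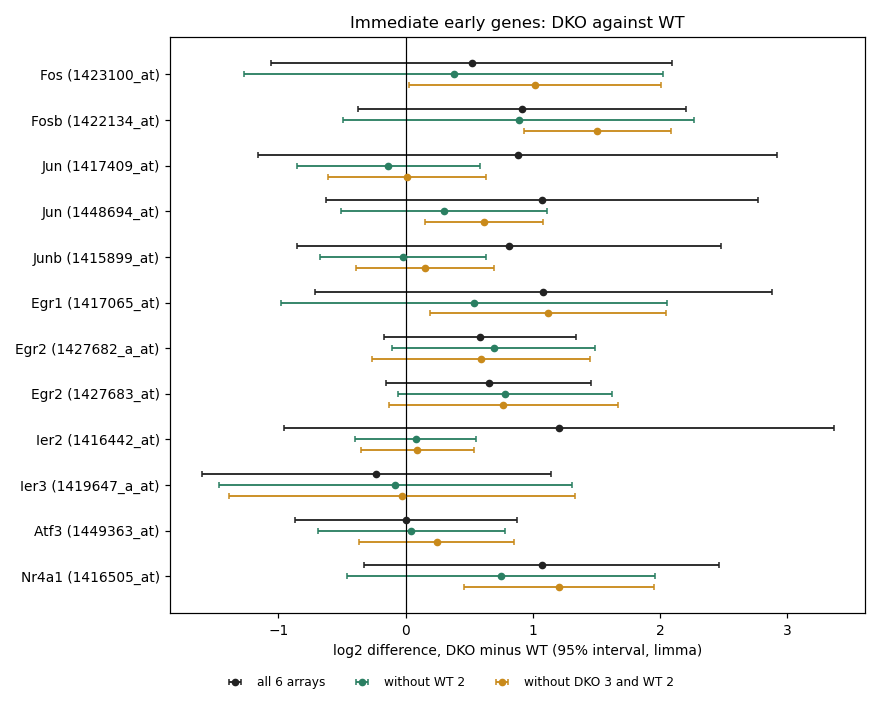
Log2 difference, DKO minus WT, of each of the 12 probe sets with its 95% interval from limma (horizontal axis), for all 6 arrays, without WT 2 and without both DKO 3 and WT 2. Every interval of the first 2 fits spans 0, and leaving out WT 2 moved Ier2 to 0.08 and the brighter Jun probe set to -0.14.

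Among the knockout arrays the members split. Fos was 3.77-fold higher on DKO 1 and DKO 2, by their log2 mean, than on DKO 3, Fosb 3.62-fold, Egr1 3.34-fold and Nr4a1 2.59-fold. On the log2 scale the DKO 3 value minus the mean of DKO 1 and DKO 2 was -1.91 for Fos, -1.85 for Fosb, -1.74 for Egr1 and -1.37 for Nr4a1, against a median of 0.14 over all tested probe sets. The shares of tested probe sets with a lower value were 1.24%, 1.35%, 1.61% and 3.07% for these 4, in that order. By their brightest probe sets the other 6 genes differed by less, with -0.60 for Atf3, -0.53 for Junb, -0.45 for Jun, -0.17 for Ier3, -0.03 for Ier2 and 0.04 for Egr2. The second Jun probe set gave -0.95 (1.93-fold), the next after Nr4a1, so the 2 Jun probe sets differed in this too. In all, DKO 3 was the lowest DKO array in 8 of the 10 genes, against 31.8% of all tested probe sets. DKO 3 is shown apart because of such values, so these shares describe that array and are no test.

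The wild type arrays split too. WT 3 read below WT 1 in 10 of 10 genes, against 36.2% of all tested probe sets. The gap was -2.17 for Ier3, -1.63 for Fos, -1.44 for Egr1, -1.01 for Nr4a1, and -1.004 for Egr2, and it was -0.47 to -0.11 for the other 5. WT 2 lay farthest below the mean of WT 1 and WT 3 for Ier2 (-3.38), Jun (-3.06), Junb (-2.51) and Egr1 (-1.64). It lay above that mean for Ier3 (0.44), Egr2 (0.38) and Atf3 (0.13). The median over all tested probe sets was -0.59. The shares of tested probe sets with a lower value were 6.14%, 8.37%, 13.6% and 26.5% for Ier2, Jun, Junb and Egr1, in that order. WT 2 was the lowest WT array in 6 of the 10 genes, against 60.7% of all tested probe sets. For 8 of the 10 genes the larger of the 2 group SDs exceeded the difference between the group means.

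With both DKO 3 and WT 2 left out, 2 arrays remained in each group, and the fit called 4.21% of all tested probe sets. In that fit 5 of the 12 probe sets had an unadjusted p under 0.05, against 21%, and 1 of the 12 passed, Fosb, with a difference of 1.51 and an SE of 0.25 (limma adjusted p = 0.0176). The next smallest adjusted p values were 0.0841 for Nr4a1 (1.21), 0.134 for the second Jun probe set (0.62), 0.165 for Egr1 (1.12) and 0.228 for Fos (1.02). With DKO 3 alone left out, 0 of 12 passed, against 0% of all tested probe sets, and Fosb (1.53, unadjusted p = 0.0053) and Nr4a1 (1.53, unadjusted p = 0.0433) were the 2 with an unadjusted limma p under 0.05, against 5.63%. Without DKO 3, 6 of the 10 genes had both remaining DKO arrays above every WT array, against 17.2% of all tested probe sets. Leaving out DKO 3 removes the knockout array on which Fosb was lowest, and nothing in the control ratios marked that array, so the Fosb call rests on a choice made from the values. The call was not obtained with all 6 arrays. The counts and p-values of every fit without DKO 3 rest on the same choice. DKO 3 was the lowest DKO array in 8 of the 10 genes, so these counts describe the remaining arrays and are no test of the genotypes.

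Markers of other cell types differed between the same arrays. Of 14 granulocyte genes with a named probe set, the summed signal was 647, 645 and 27986 on DKO 1 to 3, against 76430, 179451 and 19379 on WT 1 to 3. On DKO 1 and DKO 2, 9 and 11 of these 14 lay below the array median, against 1 on DKO 3 and 0 to 1 on the WT arrays. The summed signal of 22 macrophage genes was 29336, 20398 and 39319 on DKO 1 to 3, against 68224, 136065 and 28234 on WT 1 to 3. DKO 1 and DKO 2, which had the highest Fos, Egr1 and Nr4a1, thus had the lowest granulocyte signal, but WT 1 had high signal of both kinds. The 16 early B cell genes summed to 178049, 183191 and 114403 on DKO 1 to 3, against 129491, 256128 and 128104 on WT 1 to 3. These sums are of signal as deposited, and WT 2 stood differently once arrays were centred. Early B cell genes then had their lowest median deviation on WT 2, -1.37 from their mean over the 6 arrays on the log2 scale, and granulocyte genes stood at 0.42 on WT 2 but 2.31 on WT 1.

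Other lists were high on DKO 1 and DKO 2, as Fos, Fosb, Egr1 and Nr4a1 were. The median deviation of 10 dendritic and mast cell genes was 1.001, 0.80 and -0.06 on DKO 1 to 3, against -0.18, -0.89 and -0.48 on WT 1 to 3. For 10 T and NK cell genes it was 0.42, 1.22 and -0.52 on DKO 1 to 3, against -0.53, -0.35 and -0.48 on WT 1 to 3. Both lists were thus highest on DKO 1 and DKO 2. The summed signal of 12 dendritic and mast cell genes was 3559, 3745 and 1380 on DKO 1 to 3, against 2476, 1456 and 1314 on WT 1 to 3, and that of 12 T and NK cell genes was 1282, 2045 and 963 on DKO 1 to 3, against 1005, 3094 and 1075 on WT 1 to 3. Cd3d, a chain of the T cell receptor complex picked out after its values were seen, read 155, 295 and 8.43 on DKO 1 to 3, against 10.6, 14.0 and 7.90 on WT 1 to 3. Cd3d had the largest difference of its list, 2.34, where 7 of the 10 tested genes were higher in DKO and 3 lower. Those 3 were Zap70 (-0.97), Cd8a (-0.45) and Ncr1 (-0.22). Kit, the stem cell factor receptor of mast cells and progenitors, also picked out afterwards, read 892, 989 and 86.3 on DKO 1 to 3, against 906, 283 and 160 on WT 1 to 3. Kit was high on DKO 1, DKO 2 and WT 1 and low on DKO 3 and WT 3, as Fos and Egr1 were. Its list as a whole was not high on WT 1, with a median deviation of -0.18 there, against 0.55 for the immediate early genes. The part of cell makeup in the values of the immediate early genes was not tested, and in bulk samples fewer cells of a type and less RNA per cell cannot be told apart.

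**Figure D3:**
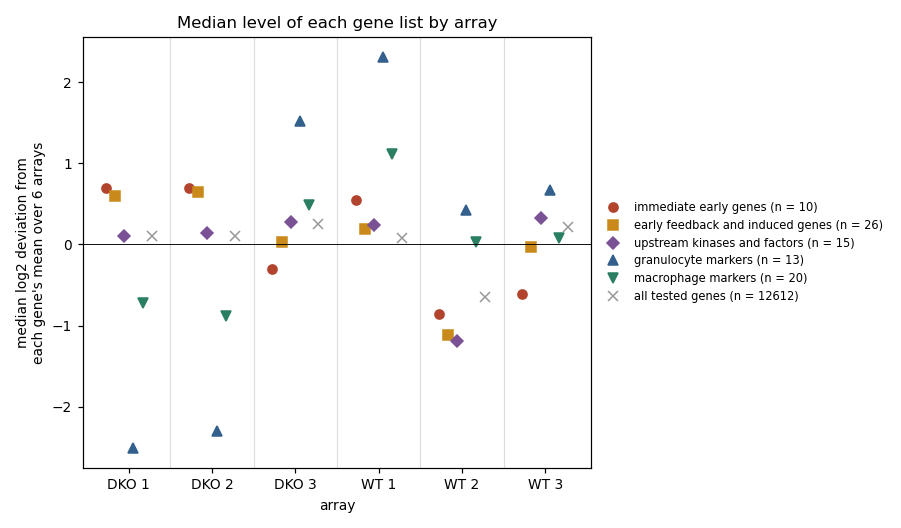
Median log2 deviation of each gene list from its genes' means over the 6 arrays (vertical axis) on each array (horizontal axis, points side by side for legibility). The immediate early genes stood at 0.69 and 0.69 on DKO 1 and DKO 2 and at -0.30 on DKO 3, and at 0.55, -0.86 and -0.61 on WT 1 to 3, while the granulocyte markers were lowest on DKO 1 and DKO 2.

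Genes induced early along with these factors, some of which encode feedback inhibitors of the same kinases, mostly had a higher mean in DKO too. Their median deviation was 0.595, 0.64 and 0.035 on DKO 1 to 3, against 0.194, -1.12 and -0.03 on WT 1 to 3. The 10 immediate early genes stood at -0.30 on DKO 3, 0.55 on WT 1 and -0.61 on WT 3, so the profiles by array were alike only in part. Of 29 genes on the early list, 26 were tested, and 23 had a higher and 3 a lower mean in DKO. Of all tested genes 69.9% were higher. Of the 26, 0 passed limma, against 0.0074% of all tested probe sets, and 0 had an unadjusted p under 0.05, against 3.12%. Their median difference was 0.59, against 0.305 for all tested genes. Without WT 2 their median was 0.27 and 20 of 26 were higher, against 0.01 and 51.8% for all tested genes. Dusp6, the phosphatase that inactivates ERK, read 4551, 3309 and 1753 on DKO 1 to 3, against 1408, 172 and 1227 on WT 1 to 3. Its groups did not overlap. The difference was 2.42 (limma adjusted p = 0.822). Without WT 2 it was 1.15, and Dusp6 was then the 1 gene of the 26 at an unadjusted limma p under 0.05, against 4.39% of all tested probe sets. The next smallest p belonged to Ppp1r15a, which encodes a phosphatase subunit of the stress response (1.04, and 0.53 without WT 2), and to Csrnp1, a nuclear protein induced by growth signals (0.84, and 0.47 without WT 2). Dusp2, a nuclear MAP kinase phosphatase, was the other gene whose groups did not overlap, at 5369, 5510 and 4802 on DKO 1 to 3, against 3626, 531 and 4584 on WT 1 to 3, so 2 of 26, where the share for all tested probe sets was 6.97%.

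A list of other AP-1, EGR and NR4A family members, which also held Nab1, Nab2 and Ier5, had no common direction. Of 16 listed, 14 were tested, 9 higher and 5 lower in DKO, with a median of 0.23. Of all tested genes 69.9% were higher, with a median of 0.305. Of the 14, 0 passed limma, against 0.0074% of all tested probe sets. An unadjusted p under 0.05 was found for 3 of 14, against 3.12%. They were Batf3, a leucine zipper factor that pairs with JUN (1.09), Mafk, a small MAF protein (1.21), and Nr4a3, the relative of Nr4a1 (-0.83). Of these, Batf3 and Nr4a3 were dim, below the array median on 4 and 2 of the 6 arrays. The group difference of Nr4a3 was opposite in sign to that of Nr4a1, though both genes read lower on WT 3 than on WT 1. Nr4a3 read 53.9, 52.5 and 60.6 on DKO 1 to 3, against 174, 246 and 63.8 on WT 1 to 3. All 3 had a limma adjusted p of 0.822. Mafk read 1177, 1398 and 532 on DKO 1 to 3, against 502, 519 and 496 on WT 1 to 3. Without WT 2 the 3 differences were 0.80, 0.90 and -0.80.

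By their brightest probe sets, the kinases and bound factors that switch these genes on gave a lean that was lost without WT 2. The lean of all tested genes shrank then too. Of 19 listed, 15 had a named probe set and were tested, and 0 passed limma, against 0.0074% of all tested probe sets. In DKO 13 of the 15 were higher, with a median of 0.36, against 69.9% and 0.305 for all tested genes. Without WT 2, 6 of 15 were higher and the median was -0.03, against 51.8% and 0.01 for all tested genes. In that fit 2 of 15 had an unadjusted limma p under 0.05, against 4.39% of all tested probe sets. Both were lower in DKO in that fit, Mapk8, the JNK1 kinase (-1.11, and -0.34 with all arrays), and Crem, a relative of CREB (-1.16, and -0.16 with all arrays), and both were named for these values. With all 6 arrays the smallest unadjusted limma p values were 0.176 for Elk4, 0.179 for Mrtfa and 0.32 for Mapk14. Elk4, an ETS partner of serum response factor, differed by 0.95, and by 0.23 without WT 2. Mrtfa, an actin-regulated coactivator of serum response factor, differed by 1.495, and by 0.25 without WT 2. For Mapk14, the p38 kinase, the values were 0.62 and 0.00. With all arrays the other probe sets of Elk4 gave 0.66 and 0.50, and those of Mapk14 gave 0.22, -0.45 and 0.31. Without WT 2 these were 0.826 and 0.625 for Elk4, and -0.522, -0.279 and 0.145 for Mapk14.

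**Figure D4:**
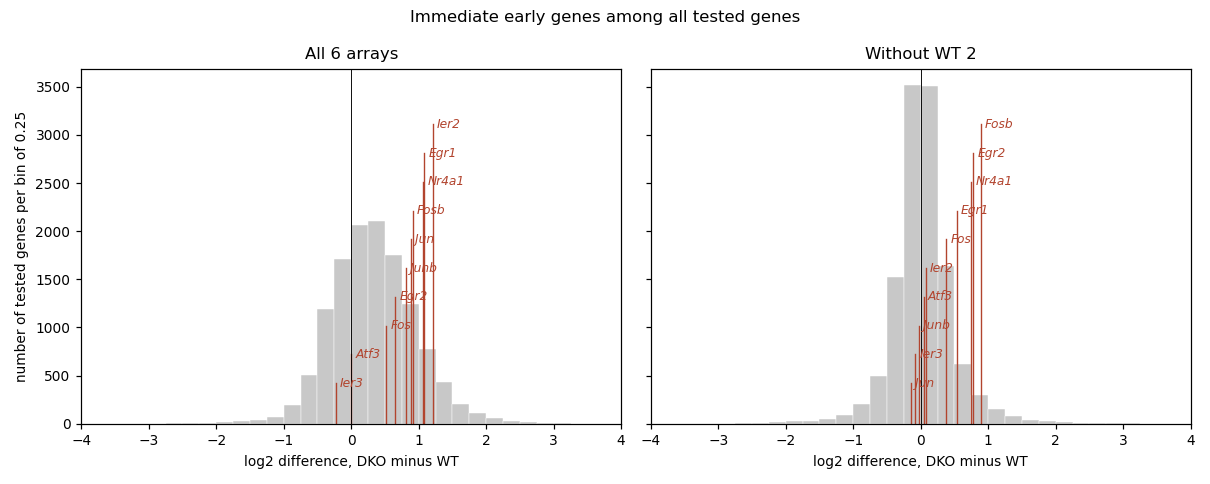
Number of tested genes (vertical axis) by log2 difference, DKO minus WT, in bins of 0.25 (horizontal axis), with the 10 immediate early genes as labelled red lines, for all 6 arrays (left) and without WT 2 (right). With all arrays 9 of the 10 lie above 0 in a distribution whose own median is 0.305, and without WT 2, Fosb, Egr2 and Nr4a1 lie farthest to the right, at 0.89, 0.78 and 0.75.

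Within the set, likeness was measured as the root mean square distance between 2 genes' log2 profiles, each taken against its own mean. Without WT 2, over 5 arrays, the closest pairs were Junb with Atf3 (0.12) and Fos with Egr1 (0.16), followed by Junb with Ier2 (0.20) and Egr1 with Nr4a1 (0.24). Over all 6 arrays Egr1 with Nr4a1 (0.30) and Jun with Junb (0.32) were closest. Outside the set, the genes nearest to the median profile of the 10 members over 6 arrays were Oas3 (0.14), Tbc1d2b (0.14), Dusp1 (0.15), Tceal8 (0.17) and Btbd3 (0.18), where the median gene lay at 0.78 and the median member at 0.53. Dusp1, a phosphatase of MAP kinases and itself an immediate early gene, read 2924, 2325 and 1070 on DKO 1 to 3, against 2533, 2051 and 903 on WT 1 to 3. Over the 5 arrays without WT 2 they were Rtp3 (0.10), Ppm1l (0.11), Tubb4a (0.11), Errfi1 (0.12), a feedback inhibitor of the EGF receptor, and Vegfc (0.12). No gene was shared between these lists of 5, and Oas3, Rtp3 and Tubb4a had signals near or under the array median on most arrays.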

How the data were processed

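The authors deposited linear intensity values computed by MAS5, per the submitters' processing notes, with no version named. Every array had been scaled to a common mean, which was 500 with the top and bottom 2% of values left out. Detection calls and batches are not used here. Of 45037 non-control probe sets, 34945 had 1 listed symbol, and 34741 of these were checked by gene identifier against GRCm38.p6.

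Values were taken as log2(intensity + 16), centred on each array's median, and the 27022 probe sets whose mean exceeded percentile 40 were fitted in R 4.3.3 by limma 3.58.1, with group as the single term, variances following a trend in mean signal, two-sided tests and Benjamini-Hochberg adjustment. The fit was tested on simulated data. The number of arrays limits the precision.

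The members and the lists were chosen with earlier results of these data known. The lists were the members, 3 pathway lists (family, early feedback and induced, upstream) and 7 marker lists (granulocyte, macrophage, early B, T and NK, dendritic and mast, erythroid and platelet, stroma and endothelium). The text names every member, of each pathway list the called genes or else the 3 with the smallest p, and the 5 genes nearest in profile. Dusp2, Mapk8, Crem, Cd3d, Zap70, Cd8a, Ncr1 and Kit, which fall outside that rule, and Errfi1's and Dusp1's roles were picked out after values were seen. The labels pair no arrays. Deviations from the group means correlated at -0.15, -0.002 and 0.33 for numbers 1 to 3. With 1 pair of arrays per number, these values cannot decide if arrays of the same number shared a condition.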

Additional observations from a re-analysis of the deposited data

How the results depend on the processing

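In 19 other settings of the fit, 0 members passed except in 1. Without DKO 3 and WT 2 together, 1 probe set and so 1 member passed, Fosb (1.51, limma adjusted p = 0.0176). The median difference of the members was 0.85 as reported, 0.23 to 1.14 with 1 array left out (lowest without WT 2), 0.57 with quantile normalization, 0.54 with no centring, 0.56 with centring over the tested probe sets and 0.31 with array weights. Over all tested probe sets these last 4 settings gave medians of -0.02, -0.10, -0.08 and -0.01, against 0.21 as reported. The replicate number as a block left the median at 0.85 with 0 members called. With 1 array left out the difference ran from 0.17 to 1.16 for Fos, 0.56 to 1.53 for Fosb, 0.54 to 1.72 for Egr1, 0.75 to 1.53 for Nr4a1 and 0.34 to 0.84 for the brighter Egr2 probe set. Direction turned for 4 probe sets. Atf3 turned with quantile normalization (-0.46), no centring (-0.31), centring over the tested probe sets (-0.29), pseudocount 64 (-0.075) and without DKO 1, DKO 2 or WT 3, with a range of -0.14 to 0.20 when 1 array was left out. Ier3 turned without WT 1, with a range of -0.85 to 0.24. The brighter Jun probe set turned without WT 2 (range -0.14 to 1.44, and -0.12 with quantile normalization too), as did Junb (range -0.02 to 1.28). Calls over all probe sets were 2 as reported, 0 with quantile normalization, no centring, centring over the tested probe sets, pseudocount 1, the replicate block or any 1 array other than WT 2 left out, 1 with the filter at percentile 60 or robust variances, 3 with pseudocount 64, 6 without WT 2 (5 with quantile normalization), 922 with array weights and 1137 without DKO 3 and WT 2. Beyond the arrays left out, the cause was not tested. Egr2 was dim, below the array median on WT 3, which limits its size.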

Other observations

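Lists of other cell types that marrow cultures can hold had 0 members past limma's adjusted threshold. With all 6 arrays the granulocyte list was lower in DKO in 13 of 13 tested genes (median -2.70, and -2.76 without WT 2). Of the 13, 6 had an unadjusted limma p under 0.05, against 3.12% of all tested probe sets. None had DKO wholly below WT, against 3.29%. The lower means came from DKO 1 and DKO 2, where the median deviation was -2.51 and -2.30. On DKO 3 it was 1.525, above the 0.42 of WT 2 and the 0.67 of WT 3. The macrophage list was lower in 18 of 20 (median -0.66, 3 at an unadjusted limma p under 0.05). Early B cell genes were higher in 11 of 16 (median 0.41, and 0.18 without WT 2), and T and NK cell genes in 7 of 10 (0.68, and 1.11 over 8 genes without WT 2), both close to the 69.9% of all tested genes higher in DKO. Dendritic and mast cell genes were higher in 9 of 10 (1.06, and 0.83 without WT 2). Erythroid and platelet genes were split with 3 of 6 higher (-0.06), and stroma and endothelial genes were higher in 4 of 6 (0.14). The counts at an unadjusted p under 0.05 were 2, 4, 3, 0 and 0 for these 5 lists, in that order. Batf3 is on both the dendritic list and the list of AP-1 relatives.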
